A study of Homo sapiens with 480 samples.

Results

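Human fibroblasts were compared 2 days after the start of reprogramming according to whether the transcription factor SOX2 was detected in the individual cell. Reprogramming was started by virally expressed OSKM, the set of POU5F1 (OCT4), SOX2, KLF4 and MYC. The values are the authors' deposited FPKM (fragments per kilobase of transcript, scaled to the number of mapped fragments), and each cell was rescaled to a sum of 1000000. A cell was kept when 2000 or more genes had a rescaled value of 1 or more, here called detected genes, and 96 of 96 day-2 cells were kept, out of 480 cells in the series. Of these, 59 cells had SOX2 at 1 or more and form the cells with SOX2, and 37 cells had SOX2 under 1 and form the cells without it. The sides were thus chosen by the SOX2 value alone.

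The series holds 5 groups of 96 single cells of BJ, an established fibroblast line from neonatal skin. One group was untreated (labelled WT), and the others were taken at days 2, 8 and 16 of OSKM expression, the last day as separate groups of TRA-1-60 positive and negative cells, TRA-1-60 being a surface antigen of pluripotent cells. Polyadenylated RNA of single cells was captured on Fluidigm C1 chips and made into Nextera XT libraries. The labels name no separate cultures or chips within a group, so the 96 day-2 cells are 1 sample, both sides come from that 1 sample, and cells are not replicates. For this reason no test and no p-value is given, and every difference is a description of these cells. Depth in reads is unknown, since the deposited values are not counts. Each group has its own table, possibly normalized separately, which touches every level set beside that of untreated cells.

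SOX2 is a DNA-binding protein of the HMG box family that acts with POU5F1 to keep pluripotent cells undifferentiated, and fibroblasts do not normally make it. In the first days of reprogramming, cells that receive the factors still carry most of the fibroblast program, which consists of matrix, contractile and mesenchymal genes, while MYC drives growth and ribosome production. Endogenous pluripotency genes are known to come on much later. The deposited tables give 1 value per gene symbol, so viral and endogenous SOX2, KLF4 and MYC RNA cannot be told apart.

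The share of day-2 cells with SOX2 was 61.5% (exact Clopper-Pearson 95% interval 50.97% to 71.2%, covering counting error only). SOX2 itself defined the sides, so its levels are given without comparison. In the 59 cells with SOX2 the rescaled level had a lowest value of 1.04, a median of 82.4 and a highest value of 369. In the 37 cells without it, 27 were listed at 0 and 10 lay above 0, up to 0.969. The cells just inside the threshold had 1.04, 1.10 and 4.17, and those just outside had 0.969 and 0.886. SOX2 was at 10 or more in 50 cells and at 100 or more in 26. Most cells with SOX2 therefore lay well above the threshold, and few cells lay close to it. In untreated BJ cells SOX2 reached 1 in 2 of 92 kept cells.

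The sides were not equal in the number of detected genes. Cells with SOX2 had a median of 6113 detected genes (lowest 2301, highest 8478), and cells without it had 5535 (lowest 2248, highest 7082). The ranges overlapped over most of their length, but 11 of the 15 cells with fewer than 4000 detected genes lacked SOX2. The share with SOX2 was 26.7% in that band, 58.97% (23 of 39 cells) from 4000 to under 6000 detected genes, and 76.2% (32 of 42 cells) at 6000 or more. Spearman's rank correlation between SOX2 and detected genes was 0.35 over 96 cells and 0.25 within the 59 cells with SOX2, both values from the same libraries and so sharing their depth. Every comparison was therefore repeated in the 81 cells with 4000 or more detected genes, here called the deeper cells, of which 55 had SOX2 and 26 did not. Their medians were 6248 and 5883.5 detected genes, so a gap of 364.5 genes remained where the gap over all cells was 578.

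**Figure D1:**
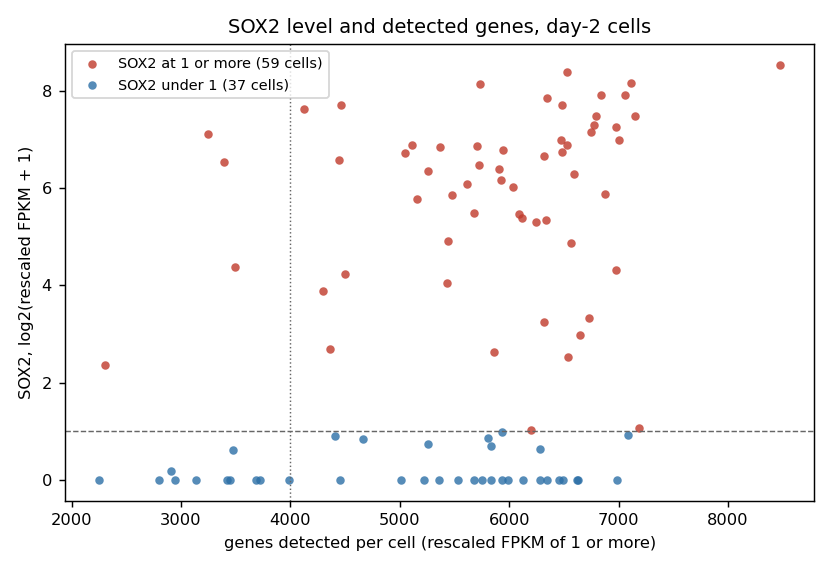
SOX2 level, as log2(rescaled FPKM + 1), against the number of genes detected at 1 or more, with 1 point for each of the 96 day-2 cells. The dashed line is the SOX2 threshold of 1 and the dotted line marks 4000 detected genes; 11 of the 15 cells to its left lie below the threshold, and to its right the sides overlap in detected genes.

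A set of 6 cells stood apart by a deposited FPKM sum above 1200000, 3 on each side. The largest sum, 7.49e+07, was in a cell without SOX2, and the next was in a cell with SOX2 in which SNORD83B, a small nucleolar RNA, held 93.8% of the sum. Mitochondrial ribosomal RNA (RNR2) had a median share of 1.75% with SOX2 and 1.77% without, but the upper quartile was 2.59% and 4.95% and the highest cell 12.4% and 36.3%. Among cells with 4000 or more detected genes the upper quartile was 2.54% with SOX2 and 1.82% without, so the highest shares without SOX2 lay in cells of few genes. The part of this in the differences was not tested. Of the fibroblast markers listed for a check of identity, COL1A1, FN1 and VIM were detected in all cells of both sides. The other listed markers, COL1A2, COL3A1, THY1, LUM and DCN, are not given here, so the check is partial. The same holds for the keratinocyte markers KRT5, KRT14 and TP63. KRT6A, a keratin of stratified epithelium, was detected in 37 of 59 cells with SOX2 and in 22 of 37 without it, and among cells with 4000 or more detected genes in 35 of 55 and 12 of 26.

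KLF4, the second reprogramming factor readable here, was higher with SOX2. Its level in cells with SOX2 ran from 0 over a median of 13.1 to 285, and without SOX2 from 0 over 1.998 to 85.96. The sides overlapped, but KLF4 was detected in 54 of 59 cells with SOX2 and in 22 of 37 without. Among the deeper cells it was detected in 52 of 55 and 20 of 26, a smaller gap. Mean levels were 37.4 and 13.004, a log2 ratio of means (with over without SOX2, 1 added to each mean) of 1.46, and in the deeper cells 1.05. Untreated BJ cells averaged 7.45.

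MYC was already high on both sides. Its median was 816 with SOX2 (lowest 0.853, highest 5051) and 549 without (lowest 9.23, highest 3446), against a mean of 44.5 in untreated BJ cells. The middle of both sides thus lay far above the untreated mean. The log2 ratio of means was 0.69, and 0.46 in the deeper cells, but -0.13 in FPKM as deposited. Over the 96 cells Spearman's rank correlation was 0.71 between KLF4 and MYC, 0.41 between SOX2 and KLF4 and 0.31 between SOX2 and MYC, so the pair KLF4 and MYC varied together more closely than either did with SOX2. Among the deeper cells these were 0.71, 0.29 and 0.25. All points share depth, and no test was made. POU5F1, though among the factors delivered, could not be read: its means were 0.121 with SOX2 and 0.495 without.

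Among 12295 genes with a mean of 1 or more on a side, 1508 (12.3%) were at least 2-fold higher with SOX2 and 1546 (12.6%) at least 2-fold lower, with the mean of log2(level + 1) moving the same way. Among the deeper cells 11926 genes were measured, and 1348 (11.3%) were higher and 974 (8.17%) lower. A stricter rule added a mean of 10 or more on the higher side and a share of detecting cells that differed by 25 percentage points or more. Of 6060 genes that could meet it, 120 (1.98%) were higher with SOX2 and 9 (0.149%) were lower. In the deeper cells the same rule gave 81 of 5920 (1.37%) higher and 49 (0.828%) lower. Of the 120 higher genes 53 also passed the stricter rule in the deeper cells. All 120 had a difference of mean log2 level of the same sign there. The deeper cells are 81 of the same 96 cells that chose these genes, so a same sign was largely given in advance. Of the 9 lower genes 5 passed again.

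GDF15, a secreted stress-induced member of the TGF-beta superfamily and a known p53 target, differed most by mean log2 level. In cells with SOX2 it ran from 0 over a median of 56.7 to 2063. In cells without SOX2 the median was 0 and the highest value 401. GDF15 was detected in 49 of 59 cells with SOX2 and in 14 of 37 without, so a minority of cells without SOX2 also held it and the sides overlapped. The log2 ratio of means was 3.14, and 2.98 in the deeper cells. Untreated BJ cells averaged 16.9, close to the mean of 16.4 in day-2 cells without SOX2. That mean of 16.4 rested largely on the 1 cell at 401.

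LAPTM4B, a lysosomal membrane protein, and DANCR, a long noncoding RNA that hosts small nucleolar RNAs, were also detected more often with SOX2. LAPTM4B was detected in 53 of 59 cells with SOX2 and in 15 of 37 without, and among the deeper cells in 53 of 55 and 10 of 26. Its median over all day-2 cells was 45.4 with SOX2 (highest 261) and 0.417 without (highest 293), and untreated BJ cells averaged 26.01. DANCR had a median of 242 with SOX2 (highest 1608) and 3.74 without (highest 850.5), and was detected in 54 of 59 cells against 23 of 37, and among the deeper cells in 51 of 55 against 19 of 26, a smaller gap. For both genes some cells without SOX2 lay as high as the middle of the other side.

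Genes that were rare without SOX2 included LAMA4, a laminin chain of basement membranes, with means of 52.5 and 1.93 and detection in 57.6% and 18.9% of cells. KCNK1, a potassium channel, averaged 31.4 and 4.45, with detection in 67.8% and 18.9%. RRP8, a nucleolar methyltransferase, averaged 36.98 and 2.62. For these 3 genes the log2 ratio of means was 4.19, 2.57 and 3.39 over all cells and 3.97, 2.18 and 3.08 in the deeper cells. LAMA4 and KCNK1 were low in untreated BJ cells too (means of 2.38 and 1.65), while RRP8 averaged 19.5 there. The remaining genes of the 10 furthest apart upward by mean log2 level were SCARNA22, C12orf45, NUTM2A-AS1 and CCDC51, with log2 ratios of 1.30, 1.07, 1.60 and 2.18. SCARNA22 and C12orf45 were under 2-fold in the deeper cells, at 0.86 and 0.48.

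In the other direction, BDKRB1, the inducible bradykinin receptor of fibroblasts, averaged 1.53 with SOX2 and 38.4 without. Its median was 0 on both sides, and the highest values were 62.9 and 308. It was detected in 8.47% of cells with SOX2 and 35.1% without, and in 9.09% and 50% of the deeper cells. Untreated BJ cells averaged 42.9, near the level of day-2 cells without SOX2. SNAI2, a zinc-finger factor of the mesenchymal state, averaged 11.4 with SOX2, 30.8 without and 60.00 in untreated cells, and was detected in 30.5% and 62.2% of the day-2 sides. The highest cell with SOX2 reached 93.9 and the highest without 274, so the sides overlapped.

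TNS1, an adhesion protein that binds actin, FAM180A, ASAP2 and GSDMD, the pore-forming executor of pyroptosis, were also lower with SOX2 by the stricter rule. Their log2 ratios were -1.93, -2.004, -1.21 and -1.01 over all cells and -0.83, -2.59, -1.09 and -1.32 in the deeper cells. RECQL5, a DNA helicase, had -1.98 and -1.42. The last 2 of the 9, POF1B and EFCAB5, rested on cells of few detected genes: their ratios of -4.75 and -3.98 became 0.13 and -0.13 in the deeper cells.

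**Figure D2:**
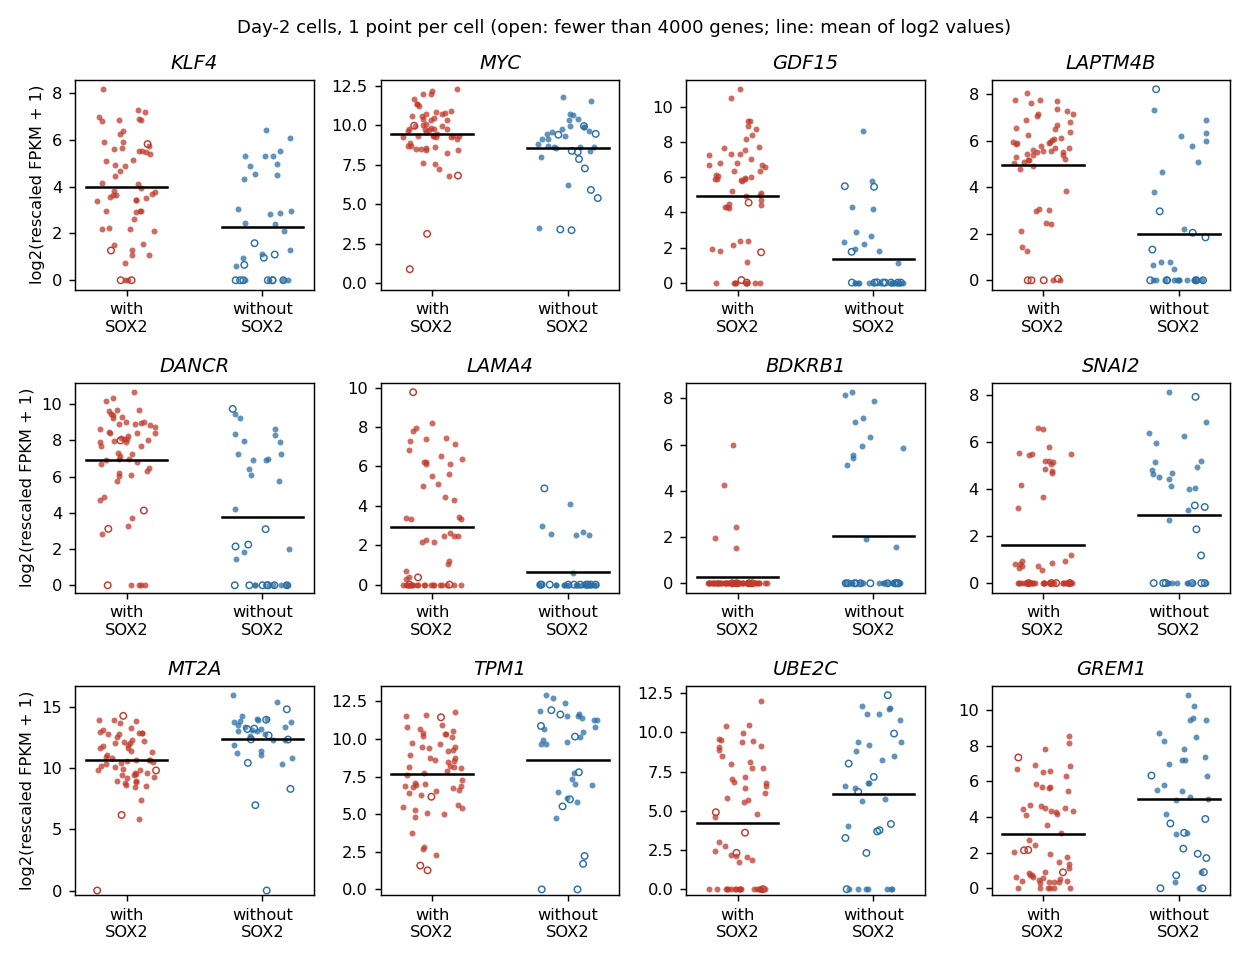
Levels of 12 genes in each of the 96 day-2 cells, as log2(rescaled FPKM + 1), with 1 point per cell (filled for cells with 4000 or more detected genes, open for the others), cells with SOX2 beside cells without it and a bar at the mean of the log2 values. KLF4, MYC, GDF15, LAPTM4B, DANCR and LAMA4 have the higher bar with SOX2, the other 6 genes the lower one, and for every gene drawn the sides overlap.

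The sequence before the start of 2 of these genes is printed because both held a short match to the core letters bound by SOX proteins. By difference of mean log2 level under the stricter rule, they are also the genes furthest apart in each direction. With these 2 included, a match was counted in 4 of the 14 named genes with a window. That count may be too low, because genes of a chromosome left out of the printing were not counted as matches. The letters searched were CATTGT and CTTTGT on both strands (ACAATG and ACAAAG on the other), in the 250 bases before each start, from RefSeq on GRCh38.p14 (the deposited values use hg19). Capitals mark the match, and both genes lie on the plus strand. The GDF15 window is chr19:18385908-18386157 with the match at position -44 from the start, and the BDKRB1 window is chr14:96255960-96256209 with the match at -54.
GDF15: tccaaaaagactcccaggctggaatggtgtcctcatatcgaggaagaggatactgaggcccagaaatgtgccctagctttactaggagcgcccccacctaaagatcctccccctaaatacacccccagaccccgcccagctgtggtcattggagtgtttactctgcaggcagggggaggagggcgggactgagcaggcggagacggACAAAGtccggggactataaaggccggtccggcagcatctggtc
BDKRB1: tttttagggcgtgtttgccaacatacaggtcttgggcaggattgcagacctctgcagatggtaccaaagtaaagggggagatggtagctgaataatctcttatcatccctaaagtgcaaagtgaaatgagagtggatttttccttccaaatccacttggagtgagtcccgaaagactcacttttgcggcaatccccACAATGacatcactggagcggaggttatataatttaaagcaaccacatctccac
One or the other motif was found in 3001 of 16806 windows of all genes matched by symbol (17.9%), in 1269 of 9167 windows of measured genes (13.8%), in 9 of the 87 windows matched among the 120 higher genes (10.3%) and in 2 of 7 among the lower ones. The match was thus no more frequent among the genes higher with SOX2 than among all measured genes. A match describes letters and shows no binding.

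Among the 624 genes detected in 90% or more of cells on each side with means of 10 or more, ODC1, the first enzyme of polyamine synthesis and a known MYC target, differed most upward. Its median was 329 with SOX2 (highest 3055) and 70.3 without (highest 1141), and its mean in untreated cells was 75.1. The log2 ratio of means was 1.16, and 0.91 in the deeper cells. GSTP1 (glutathione transferase), PSMB3 (proteasome), TOMM22 (mitochondrial import) and CNBP (a nucleic-acid binding protein) followed. Their log2 ratios of 0.69, 0.52, 0.51 and 0.66 were 0.23, 0.23, 0.52 and 0.23 in the deeper cells, so 3 of these 4 lay much closer to the all-gene median of 0.05 once cells of few genes were left out. The largest downward difference was in MT2A, a metal-binding metallothionein, described with its family. THBS1 (thrombospondin) followed with medians of 57.4 and 195. For ENKUR and LINC01370 the difference rested on cells of few detected genes, with log2 ratios of -5.57 and -2.80 over all cells but 0.60 and -0.06 in the deeper cells. KIF2C, a mitotic kinesin, had -2.55 and, in the deeper cells, -0.76, smaller but still negative.

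Contractile and actin genes were lower with SOX2, more clearly among the deeper cells. Of 16 measured genes 5 were at least 2-fold lower and 0 higher (12.6% and 12.3% over all genes), with a median log2 ratio of -0.79 against 0.09 over all measured genes. In the deeper cells 7 of 16 were lower (8.17% over all genes), all 16 ratios were negative and the median was -0.89 against 0.05. TPM1 (tropomyosin) had medians of 272 with SOX2 and 959.8 without, with highest values of 3601 and 7700.3. Its mean in untreated BJ cells was 2708, above the means of both day-2 sides, 617 and 1643. ACTA2 (smooth muscle actin) averaged 47.1 and 181, and 464 in untreated cells, though the share of detecting cells was alike at 42.4% and 43.2%. CNN2 (calponin 2) and TGFB1I1, a focal adhesion protein, had log2 ratios of -0.87 and -0.94, and of -1.28 and -1.23 in the deeper cells.

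Fibroblast matrix genes were also lower: 9 of 34 by 2-fold (12.6% over all genes), 0 higher, with a median log2 ratio of -0.65 and 30 of 34 negative. Among the deeper cells 6 of 34 were lower (8.17% over all genes) and the median was -0.61. GREM1, a secreted BMP antagonist, had a median of 3.45 with SOX2 (highest 378) and 34.5 without (highest 1836), and means of 36.7, 204 and, in untreated cells, 248. POSTN (periostin) averaged 8.94 and 109.8 and was detected in 22.03% and 37.8% of cells. ELN (elastin) had a log2 ratio of -2.32, which was -1.395 without the 6 cells of high FPKM sums and -1.05 in the deeper cells. Collagen I (COL1A1) averaged 184 with SOX2, 392.05 without and 635 in untreated cells. Fibronectin (FN1) averaged 638 and 1502, and a single cell without SOX2 reached 12307. For these 2 the log2 ratio moved from -1.09 and -1.23 to -0.91 and -0.84 in the deeper cells, under 2-fold. VCAN, the proteoglycan versican, went the other way by mean log2 level (1.05 over all cells and 1.001 in the deeper cells), with a ratio of means of only -0.07 and 0.29.

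Mesenchymal transcription factors did not move as a block. TWIST1, detected in 66.1% of cells with SOX2 and 32.4% without, was higher with SOX2 (log2 ratio 1.22, and 0.87 in the deeper cells), where SNAI2 was lower. PRRX1 had a log2 ratio of -2.13 over all cells and -0.24 in the deeper cells. Of 11 measured members 2 were higher and 3 lower (12.3% and 12.6% over all genes). Among the deeper cells 1 was higher and 1 lower, near the 11.3% and 8.17% over all genes. Among fibroblast surface genes PROCR, the endothelial protein C receptor, averaged 137 with SOX2, 28.1 without and 42.3 in untreated cells, though the ratio was negative (log2 -1.97) before cells were rescaled. Here 4 of 12 members were higher and 1 lower (12.3% and 12.6% over all genes), and 3 and 1 in the deeper cells (11.3% and 8.17%).

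Genes of the G2 and M phases, which rise as cells divide, averaged lower with SOX2. Of 28 measured genes 10 were at least 2-fold lower (12.6% over all genes) and 0 higher, with a median log2 ratio of -0.93 against 0.09 over all genes. With the deeper cells alone 10 were lower (8.17% over all genes), the median was -0.80 and 28 of 28 ratios were negative. The middle cell did not follow at both depths. By mean log2 level of these genes per cell, the median was 3.10 with SOX2 and 2.82 without over all cells. Among the deeper cells it was 3.11 and 4.45. UBE2C, which helps tag mitotic proteins for destruction, had a median of 11.2 with SOX2 (highest 4168) and 93.8 without (highest 5307). CDK1, the mitotic kinase, averaged 75.2 and 148 and was detected in 49.2% and 64.9% of cells, with 113 in untreated cells. KIF23, a kinesin of cytokinesis, and TOP2A (topoisomerase) had log2 ratios of -1.33 and -1.33, and -0.997 and -1.35 in the deeper cells. Genes of S phase did not share this: 2 of 28 were higher and 0 lower, under the 12.3% and 12.6% over all genes, and the median of 0.08 was close to the all-gene median of 0.09. Within them SLBP, the histone mRNA binding protein, was higher (log2 ratio 1.45, and 1.08 in the deeper cells).

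Interferon-response genes averaged lower with SOX2, with 10 of 27 at least 2-fold lower and 2 higher (12.6% and 12.3% over all genes) and a median log2 ratio of -0.68. In the deeper cells 14 of 26 were lower and 1 higher (8.17% and 11.3% over all genes), with a median of -1.01. The middle cell differed little over all cells, with a mean log2 level of these genes of 2.40 with SOX2 and 2.43 without. Among the deeper cells the middle cell had 2.54 and 3.52. IFITM1, a membrane protein that restricts virus entry, was detected in all cells, and its means of 1036 with SOX2 and 2615 without both lay above the 409 of untreated BJ cells. IRF9, the DNA-binding part of the interferon-activated complex, averaged 47.9 and 69.2, against 16.9 untreated. XAF1, a pro-apoptotic interferon target, averaged 4.35 and 13.4, against 3.98. For these 3 genes both day-2 sides averaged above the untreated cells, and the side without SOX2 averaged higher. BST2 (tetherin) was detected in 5.08% of cells with SOX2 and 13.5% without.

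Metallothioneins, which bind zinc and copper, split unevenly. MT2A had a median of 1623 with SOX2 (lowest 0, highest 19697) and 8368 without (lowest 0, highest 63168), and untreated cells averaged 10751. Its log2 ratio was -1.55, and -1.77 in the deeper cells. MT1X followed with means of 354 and 803. Of 8 measured members 5 were lower by 2-fold (12.6% over all genes), while MT1A was higher, at 53.5 against 3.46, detected in 20.3% and 5.41% of cells. These genes are near-identical copies, so reads may be split among them.

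**Figure D3:**
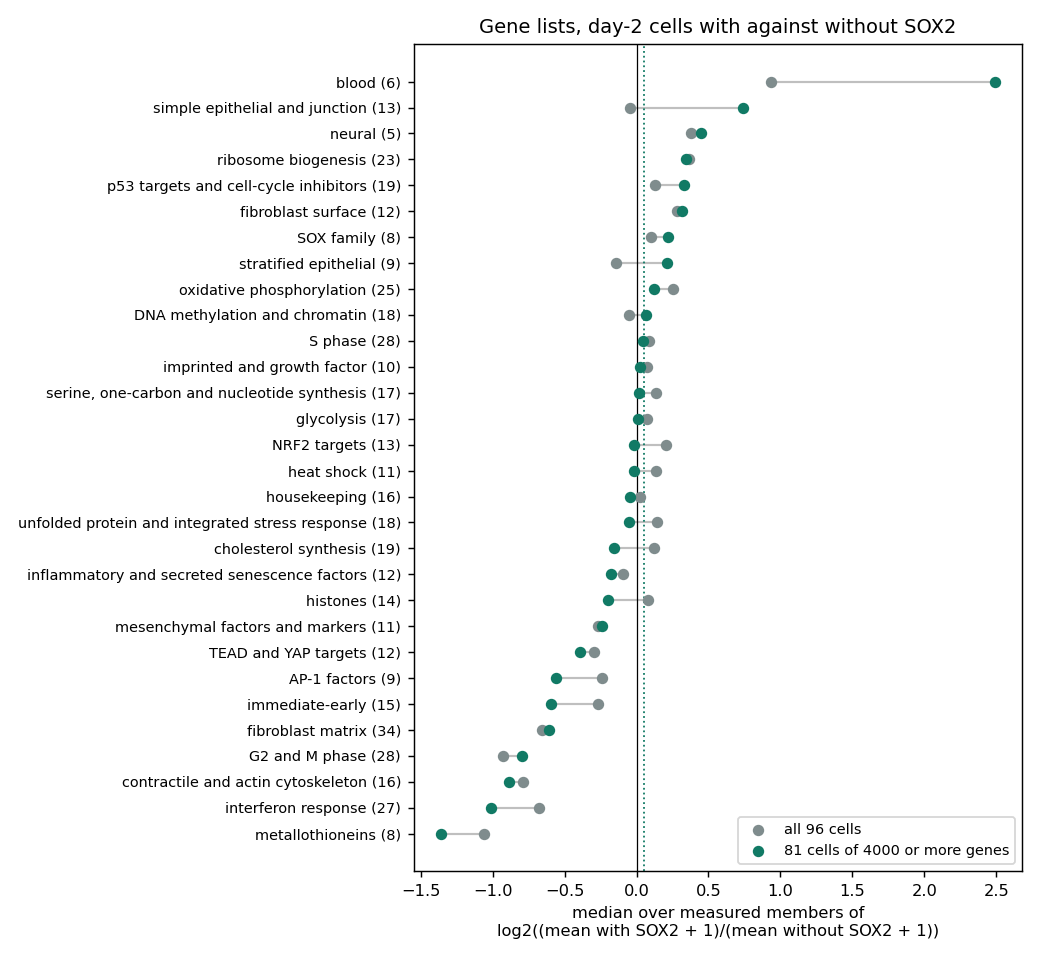
Median over each gene list's measured members of the log2 ratio of mean levels, with over without SOX2 (1 added to each mean). Values are for all 96 day-2 cells and for the 81 deeper cells. Lists drawn had 5 or more members measured over all 96 cells, their number in brackets. The members measured in the deeper cells could differ, and the blood list had 4 there against 6 over all cells. The dotted line is the median of all measured genes in the deeper cells (0.05). Metallothioneins, interferon-response, contractile, G2 and M phase and matrix genes lie lowest at either depth, and the blood list, which rests on few measured members, lies highest.

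Ribosome biogenesis genes lay slightly higher with SOX2. Of 23 measured genes 2 (RRP12 and RRS1) were at least 2-fold higher and 0 lower, a share under the 12.3% over all genes, and the median log2 ratio was 0.37. In the deeper cells 21 of 22 ratios were positive, 3 were at least 2-fold higher (11.3% over all genes) and the median was 0.34. Fibrillarin (FBL), the methyltransferase of ribosomal RNA, averaged 160.4 and 86.9 and was detected in 96.6% and 75.7% of cells. NOP2 was detected in 84.7% and 43.2%. These shares are over all cells, where the sides differed in detected genes. The list's median difference of mean log2 level was 0.83 over all cells and 0.44 in the deeper cells. The p53 targets, GDF15 among them, were mixed, with 4 of 19 higher and 2 lower (12.3% and 12.6% over all genes), and 3 and 3 in the deeper cells (11.3% and 8.17%). SESN1 (a stress-induced sestrin) averaged 15.3 and 2.31, and PMAIP1 (NOXA, a pro-apoptotic protein) 111 and 41.7. CDKN1A (p21), the best known of these targets, had a log2 ratio of -0.87 over all cells and 0.45 in the deeper cells, so its direction depended on cells of few genes.

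Pluripotency genes were mostly silent on both sides: of 30 listed genes 4 had a mean of 1 or more on a side. Of these 4, 2 were at least 2-fold higher with SOX2 and 0 lower (12.3% and 12.6% over all genes). In the deeper cells 2 of 6 measured genes were higher and 1 lower (11.3% and 8.17% over all genes). The median log2 ratio was 0.66 for the 4 genes over all cells and -0.25 for the 6 in the deeper cells. These medians rest on different sets of genes, so their change of sign is no change within a fixed set. NANOG and LIN28A were detected in 0 of 59 cells with SOX2, which allows a share of up to 5.08% (3 counts of the total, counting error only). Without SOX2, NANOG was detected in 1 of 37 cells and LIN28A in 0. L1TD1, which binds RNA and marks pluripotent cells, was detected in 9 of 59 cells with SOX2 and 2 of 37 without, with means of 3.08 and 0.210. The epithelial adhesion gene EPCAM was detected in 8.47% and 0% of cells, and CD24 in 18.6% and 2.70%. SOX4, a related HMG box factor, averaged 11.9 with SOX2 and 4.67 without, and SOX9 2.59 and 5.69. Among markers of other cell types, genes of simple epithelia and junctions were mixed, with 5 of 13 higher and 3 lower (12.3% and 12.6% over all genes) and a median log2 ratio of -0.04. In the deeper cells 5 of 12 were higher and 2 lower (11.3% and 8.17% over all genes), with a median of 0.74. JUP (plakoglobin) was higher, at 1.05 and 0.85 in the deeper cells, and the keratins KRT7 and KRT19 were lower, at -1.72 and -3.02, and -2.12 and -3.43 in the deeper cells.

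The 5 genes most like SOX2 in their pattern over the 96 cells, by Spearman's rank correlation among genes detected in 20% to 95% of cells with a mean of 10 or more, were GDF15, GSN, AHCY, LAMA4 and OCIAD2. The correlation was 0.56 for GDF15, 0.55 for GSN (gelsolin, an actin-severing protein), 0.54 for AHCY (the enzyme that breaks down S-adenosylhomocysteine), 0.54 for LAMA4 and 0.54 for OCIAD2. Among the 59 cells with SOX2 alone these values were 0.31, 0.51, 0.37, 0.47 and 0.23. These cells were among those that chose the genes, so the values are a description only. GSN averaged 158 with SOX2, 51.6 without and 103 in untreated cells, and its ratio too was negative (log2 -0.26) in FPKM as deposited. OCIAD2 averaged 385, 95.4 and 111. The points share library depth, and no test was made.

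The same split was made at day 8, where 76 cells had SOX2 and 16 did not. The number of detected genes ran the other way there, with medians of 5914 with SOX2 and 6112.5 without. At day 8, 13.3% of 12257 measured genes were at least 2-fold higher with SOX2 and 15.1% lower, and by the stricter rule 2.33% and 2.95% of 6228. Of the 120 genes higher at day 2 by the stricter rule, 68 (56.7%) had a positive difference of mean log2 level at day 8, against 49.3% of all genes measured there. Of the 7 lower genes measured at day 8, 6 were lower again, against 50.7% of all genes. LAPTM4B and DANCR were higher with SOX2 at both times, with day-8 differences of 1.74 and 1.86, and among TRA-1-60 negative cells of day 16 (71 with SOX2, 14 without) of 2.14 and 3.01. SNAI2 was lower at each of these times (-1.78 and -1.18). GDF15, the furthest apart at day 2 by this measure, had -0.47 at day 8.

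Gene groups also differed between the times. Fibroblast matrix genes had a median difference of mean log2 level of -0.84 at day 8, where 19 of 33 measured genes were at least 2-fold lower (against 15.1% of all genes). FN1 and COL1A1, which differed by -0.89 and -0.92 at day 2, differed by -4.33 and -3.15 at day 8. Genes of the G2 and M phases had the opposite sign at day 8, with a median of +0.48 against -0.51 at day 2 on the same scale, where the deeper day-2 cells had -0.83. S phase genes had +0.99 at day 8, and at day 2 +0.32 over all cells but -0.04 in the deeper cells. The all-gene median on this scale was -0.01 at day 8, and at day 2 it was 0.24 over all cells and 0.04 in the deeper cells. Whether these differences between days exceed the spread between cultures was not tested, since each day is 1 sample. No such split was made among TRA-1-60 positive cells of day 16, where 95 of 95 kept cells had SOX2.

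**Figure D4:**
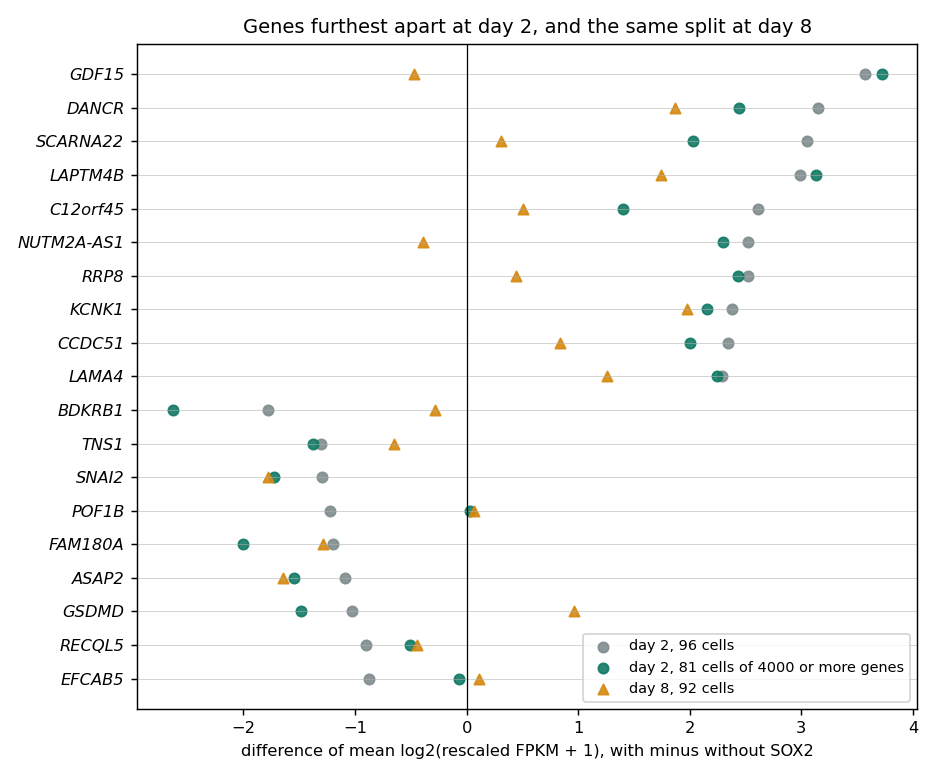
Difference of mean log2(rescaled FPKM + 1), with minus without SOX2, for the 10 genes highest and the 9 lowest by the stricter rule at day 2, in all 96 day-2 cells, in the 81 deeper day-2 cells and in 92 day-8 cells. LAPTM4B, DANCR, KCNK1 and LAMA4 keep a difference above 1 at day 8, SNAI2, FAM180A and ASAP2 keep one below -1, and GDF15 and NUTM2A-AS1 lie below 0 there.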

How the data were processed

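Single-cell RNA libraries of 5 groups of 96 BJ cells were used, with 1 table of 27021 genes per group. The authors deposited FPKM values, and STAR, Cuffnorm and hg19 are named in the submitters' processing notes, without versions. Whether the tables were normalized together, and how multi-copy genes or strands were counted, is not given in the sources used here. Doublets could not be called.

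Each cell was rescaled to 1000000, kept at 2000 or more detected genes (value of 1 or more), and split at SOX2 of 1. Genes were compared by log2((mean + 1)/(mean + 1)) and by the difference of mean log2(value + 1), where a pseudocount of 1 understates changes of low genes. A gene was measured at a mean of 1 or more on a side. With 1 culture per group as far as the labels say, no test was run. Scripts used Python 3.11.15, numpy 2.4.6, pandas 2.3.3, scipy 1.17.1 and matplotlib 3.10.9, and were tested on simulated data.

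The members and the 35 gene lists were chosen with earlier results of these data known. Genes were named by rule: the 10 highest and 10 lowest by the stricter call (all 9 where fewer passed), the 5 highest and 5 lowest among widely detected genes, the factors, up to 4 per list by difference of mean log2 level, the 5 most like SOX2, and cell type markers. VCAN, CDKN1A and RRS1 fall outside it and were chosen after their values were seen. Alternatives changed the cells kept, the SOX2 threshold, the scaling, the pseudocount, the filter on the mean and the summary, and 1 compared cells within bands of detected genes.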

Additional observations from a re-analysis of the deposited data

How the results depend on the processing

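The counts at least 2-fold apart were 1508 higher and 1546 lower with SOX2, and the stricter counts 120 and 9. In cells with 4000 or more detected genes the higher counts, 1348 and 81, stayed within 1.5 times, but the 2-fold lower count was 974 and the stricter lower count 49, and without the cells of FPKM sums above 1200000 as well (chosen after seeing the data) they were 951 and 50. The difference of median detected genes, 578, was 364.5 in both. Within bands of detected genes the measure was a weighted difference of mean log2 level, not a ratio of means. The band under 4000 detected genes, with only 4 cells with SOX2, was left out of it. The 2-fold counts were then 246 higher and 481 lower, beside 1241 and 102 by the mean of log2 values over all cells. With FPKM as deposited 2459 genes were lower, and by the mean of log2 values 102 were lower and 306 were higher by the stricter rule. The stricter higher count was 197 against cells with SOX2 at exactly 0, 195 when scaled on housekeeping genes and 188 with no filter on the mean. The stricter lower count was 17 against SOX2 at exactly 0 and 15 with SOX2 at 10 or more. Of all 2-fold calls 49.4% were higher, against 58.1% in cells with 4000 or more genes, 58.8% without the cells of high sums, 34.5% with FPKM as deposited, 92.4% by mean log2 and 33.8% within bands. Housekeeping scaling moved the median log2 ratio of all genes to 0.18, and FPKM as deposited to -0.11.

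Some genes turned direction. In cells with 4000 or more genes, within bands and without high sums as well, POF1B had 0.13, 0.14 and 0.15, and ENKUR 0.60, 0.32 and 0.63. LINC01370 had 0.13 within bands. The bands used only the same cells of 4000 or more genes, compared by mean log2 level, so they are no separate check. LY6D had 0.78 and 0.83 in the first and the last of these. With FPKM as deposited GSN had -0.26, PROCR -1.97 and MYC -0.13. The cell with the largest deposited sum, 7.49e+07, lacked SOX2 and had rescaled levels of 210 for PROCR and 230 for MYC. As deposited, without rescaling, this cell weighs far more in the mean of its side. Its part in these values and the cause of the turns were not tested. No paired analysis was possible because the replicate numbers only name cells and the results come from no test. Leaving out single replicates was not done, as the labels name no replicate cultures within a group.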

Other observations

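Immediate-early genes, which respond within minutes to growth factors, had 4 of 15 at least 2-fold lower with SOX2 and 1 higher (12.6% and 12.3% over all genes), with a median log2 ratio of -0.27. In cells with 4000 or more detected genes 4 were lower and 2 higher (8.17% and 11.3%), with a median of -0.60. DUSP1, a MAP kinase phosphatase, averaged 72.9 with SOX2, 173 without and 283 in untreated cells. ZFP36, an mRNA-destabilizing protein, averaged 8.06, 31.7 and 66.2. Of 12 targets and partners of TEAD and YAP, 3 were lower and 0 higher (12.6% and 12.3% over all genes), and 2 lower and 1 higher in cells with 4000 or more detected genes (8.17% and 11.3%). CYR61 and CTGF, secreted matricellular proteins, had log2 ratios of -1.58 and -1.44, and -1.25 and -0.97 in those cells. None of the 25 genes of oxidative phosphorylation was 2-fold apart in either direction. Their median difference of mean log2 level was 1.16 over all cells and 0.04 in cells with 4000 or more detected genes.

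The alpha globin genes HBA2 and HBA1, whose product carries oxygen in red cells, were detected in many day-2 cells. HBA2 averaged 491 with SOX2 (detected in 71.2% of cells) and 186 without (51.4%), with highest values of 7236 and 1708. HBA1 averaged 16.2 and 2.02. Both were listed at 0 in every kept untreated BJ cell. In cells with 4000 or more genes the HBA2 log2 ratio was 3.71 rather than 1.397, so most of its signal without SOX2 came from cells of few genes. PTPRC, a defining marker of white blood cells, was listed at 0 in the cells with SOX2. Of 6 measured genes of the blood list 3 were at least 2-fold higher and 2 lower (12.3% and 12.6% over all genes). In cells with 4000 or more genes 3 of 4 were higher and 0 lower (11.3% and 8.17% over all genes). No cause of the globin signal was tested.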
